A study of Homo sapiens with 6 samples.

Results

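The nucleosome remodelling and deacetylase (NuRD) complex was examined through the transcripts of 10 of its subunit genes, CHD3, CHD4, MTA1, MTA2, MTA3, HDAC1, HDAC2, GATAD2A, GATAD2B and RBBP4, out of 20046 annotated protein-coding genes. The genes were chosen by name as subunits of the complex, with earlier results of these data known. Every peak whose summit lay in one of their gene bodies was taken from the 3 peak lists of a DDX5 RNA immunoprecipitation followed by sequencing (RIP-seq). DDX5, a DEAD-box RNA helicase, was pulled down from nuclei of RH30, a long-established line of alveolar rhabdomyosarcoma positive for the PAX3-FOXO1 fusion. The series held 3 DDX5 immunoprecipitates and 3 INPUT samples without antibody, for which peak lists were not analysed here. Nothing says that the replicates came from separate cultures, so p-values measure only the spread between these samples, which may be technical. All 6 samples were of the same line, so the data describe 1 cell line under 1 condition. The question addressed was where on the NuRD transcripts DDX5-associated RNA gave peaks, and how far the replicates repeated them.

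NuRD joins an ATP-dependent chromatin remodeller, CHD3 or CHD4, to histone deacetylation by HDAC1 and HDAC2. The MTA proteins are the scaffold that holds the deacetylases, RBBP4 binds histones, and GATAD2A and GATAD2B link the remodeller to the rest of the complex. CHD4 is known in fusion-positive rhabdomyosarcoma as a cofactor of PAX3-FOXO1. The results below concern the RNAs of these genes, not their proteins.

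For 5 members a coding-sequence region recurred in all 3 lists with summits at most 100 bp apart and inside the same coding exon. The tightest such place is shown for CHD4, CHD3, GATAD2A and MTA2 as GRCh38 genome sequence in the sense of the gene, 5′ to 3′, reaching up to 50 bases to each side of the middle summit and cut at the exon's coding end. Capitals mark the stretch from the lowest to the highest of the 3 summits, so a short stretch in capitals means close agreement in position.
CHD4, exon 31, chr12:6581687-6581787, minus strand: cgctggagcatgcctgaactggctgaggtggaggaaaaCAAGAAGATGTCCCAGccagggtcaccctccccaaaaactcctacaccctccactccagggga
CHD3, exon 11, chr17:7897139-7897239, plus strand: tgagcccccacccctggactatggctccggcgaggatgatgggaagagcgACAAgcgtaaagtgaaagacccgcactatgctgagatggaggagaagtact
GATAD2A, exon 3, chr19:19492317-19492417, plus strand: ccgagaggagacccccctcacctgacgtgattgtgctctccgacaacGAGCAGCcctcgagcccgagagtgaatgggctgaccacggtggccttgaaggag
MTA2, exon 14, chr11:62595328-62595428, minus strand: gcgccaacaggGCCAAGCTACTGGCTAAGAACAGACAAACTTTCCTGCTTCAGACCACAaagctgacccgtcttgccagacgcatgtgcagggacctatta

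The lists held 23715, 23651 and 45832 peaks in replicates 1, 2 and 3. Sequencing depth is unknown. A peak's fold enrichment is the authors' ratio of the signal at the peak to the peak caller's background. The control used for that background is not stated, so a fold can carry the abundance of the RNA, and with no INPUT level the part of abundance in these values was not tested. The line was checked by markers: 7 of 10 skeletal muscle lineage genes had a peak in every list, MYMK had one in 2 lists, MYF6 and PAX7 had none, and none of the 3 blood or 3 epithelial markers had a peak in any list. Over all 20046 protein-coding genes 25.7% had a peak in every list and 10352 had one in at least 1 list, so the absence of a few markers says little alone.

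Of the 10 members, 8 had a peak in every list, RBBP4 had peaks in replicates 1 and 3, and MTA3 had none in any list. Across all protein-coding genes 25.7% had a peak in every list, and of the 10352 with a peak in at least 1 list 49.8% did. With q under 1e-05, 7 members had a peak in every list, against 15.1% of protein-coding genes, and HDAC2 was the member lost. With fold enrichments of at least 4, 5 did, against 4.06% of protein-coding genes, and CHD4, HDAC1 and HDAC2 were lost. Exons of the members summed to a median of 9.36 kb per gene, against 4.42 kb for all protein-coding genes and 6.56 kb for those with a peak in every list, and the part of this length in the counts was not tested. In all, 234 peaks lay in the members, with 72, 47 and 115 in the separate lists (mean 78 ± 34.4, SD, n = 3). Replicate 3, with the longest list, was highest, and replicate 2 was lowest although its list was as long as that of replicate 1.

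**Figure D1:**
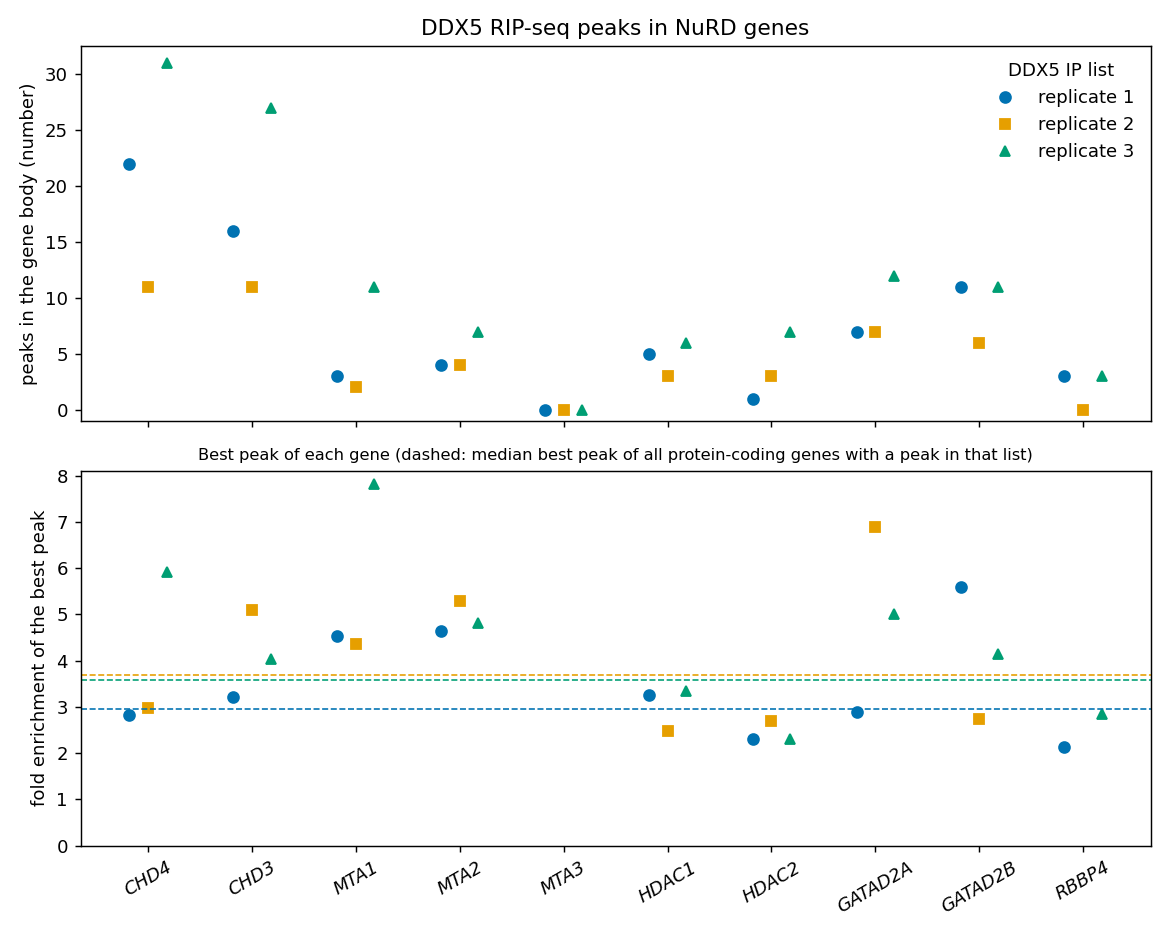
Number of peaks in each gene body (upper panel) and fold enrichment of the gene's best peak, the one with the highest −log10 q (lower panel), for the 10 NuRD genes; each point is 1 DDX5 immunoprecipitate, and dashed lines give each list's median best peak over protein-coding genes with a peak. CHD4 and CHD3 hold most peaks, with 31 and 27 in replicate 3, while MTA1 and GATAD2A reach higher best folds, up to 7.82 and 6.89.

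The remodeller genes carried the most peaks. CHD4 (chromosome 12, 6570082 to 6614524, GRCh38) held 22, 11 and 31 peaks in replicates 1, 2 and 3, and CHD3 (chromosome 17, 7884796 to 7912760) held 16, 11 and 27. Together they gave 118 of the 234 peaks (50.4%). Their paralogue CHD5, which is known mainly from neural tissue, had no peak in any list. Levels between genes were compared per length, as peaks with their summit in an exon per kb of exon sequence over all transcripts. This density was 1.49, 0.708 and 2.44 peaks per kb for CHD4 and 1.45, 0.999 and 2.36 for CHD3 in replicates 1, 2 and 3. The median over protein-coding genes with a peak was 0.327, 0.217 and 0.455. CHD4 stood at percentiles 97.1, 88.1 and 98.1 of these genes, and CHD3 at 96.8, 94.6 and 97.8, so both had many exonic peaks per kb in each list. This density counts peaks, not the bases under them. Both canonical transcripts have 40 exons, and the part of exon number in the density was not tested. The log2 ratio of CHD4 to CHD3 in density was −0.14 ± 0.31 (SD, n = 3; exact two-sided sign-flip permutation p = 1), and it turned to 0.21 when only the exons of the 1 Ensembl canonical transcript were counted, so no order between them can be given. With 3 lists such a test cannot give a p below 0.25.

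The peaks of CHD4 were many but low. The best peak of a gene was taken by its −log10 q. For CHD4 it had a fold enrichment of 2.82 in replicate 1, 2.97 in replicate 2 and 5.91 in replicate 3 (mean 3.90 ± 1.74, SD, n = 3). Replicate 3 stood apart from the other two. In replicates 1 and 2 the CHD4 value lay at percentiles 43.9 and 27.1 of protein-coding genes with a peak, and in replicate 3 at percentile 88.01. The median over all CHD4 peaks of a list was 2.12, 2.37 and 2.52, below the median gene peak of the same list in each case (2.62, 3.18 and 2.90). The best CHD3 peak had a fold of 3.22, 5.10 and 4.04 in the 3 lists, a mean of 4.12 ± 0.943 (SD, n = 3). The best folds of the remodeller genes overlapped over the lists, with a log2 ratio of CHD4 to CHD3 of −0.14 ± 0.67 (SD, n = 3; exact two-sided sign-flip permutation p = 0.75). Over all peaks of each gene, the median fold of CHD4 was below that of CHD3 in 3 of 3 lists, with a log2 ratio of −0.22 ± 0.10 (SD, n = 3; exact two-sided sign-flip permutation p = 0.25, the smallest possible).

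CHD4 summits were spread along the mRNA, but they reached most exons only in replicate 3 or over the lists together. Summits fell in 32 of the 40 exons of the canonical transcript CHD4-206 in at least 1 list, in 18, 7 and 30 exons in replicates 1, 2 and 3, and in exons 9, 16, 29, 31 and 40 in all of them. Merged over the lists, CHD4 peaks formed 31 regions, of which 10 were in all lists, 12 in 2 and 9 in 1. The recurrent region of exon 31, whose sequence opens the set above, had folds of 1.99, 2.26 and 2.45, and its 3 summits lay within 15 bp. The region of exon 9 had folds of 2.32, 2.92 and 2.92, with summits within 39 bp. The 3′ UTR region in exon 40 ran from 6570137 to 6570638 and had folds of 2.10, 2.05 and 2.50, and its middle summit lay 441 bases past the stop codon and 156 bases before the mRNA end. These recurrent CHD4 places were all low, between means of 1.82 and 2.72. The higher CHD4 peaks lay towards the 5′ end and came from replicate 3, with 7.17 around the start codon (6606237 to 6606451), 6.55 at 6599722 to 6600043 and 5.91 at 6597870 to 6598449. Replicate 1 had folds of 4.33, 2.04 and 2.82 at these places, and replicate 2 had no peak at any of them. Around the start codon the pair of fold and p value recurs on 42 peaks of replicate 3 and 124 of replicate 1. At the other places the pairs recur on 5 and 3 peaks of replicate 3 and 13 and 10 of replicate 1. With fold enrichments of at least 4, CHD4 kept 1, 0 and 4 peaks in replicates 1, 2 and 3.

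All 64 CHD4 summits also lay in the body of ENSG00000285238, a protein-coding record on the same strand (6556886 to 6607367). A further lncRNA record on the other strand, ENSG00000247853 (6578622 to 6584739), held 16 of them, among them the recurrent region of exon 31. The library kit does not keep strand, so reads of CHD4 and of this antisense record cannot be told apart. When only summits in the body of a single gene were counted, CHD4 had 0 peaks in each list and dropped out, and 7 members had a peak in every list.

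CHD3 summits fell in 25 of 40 canonical exons, and in exons 2, 11, 15 and 40 in all lists. Of its 29 regions 5 were in all lists. Among regions in all lists, that of exon 11 was the tightest coding region of any member, with summits within 3 bp and folds of 1.86, 2.34 and 2.14. The 3′ UTR region from 7911682 to 7912177 had folds of 3.22, 4.01 and 4.04, with summits within 8 bp, 518 bases past the stop codon. A further recurrent CHD3 region lay in intron 37 of the canonical transcript, at 7909511 to 7909944, where other CHD3 transcripts have an exon, with folds of 2.62, 5.10 and 3.14. The summits of that region were up to 254 bp apart. The peaks of replicate 1 (7909554 to 7909792) and replicate 3 (7909790 to 7909944) met only at their edges. Both overlapped the wider peak of replicate 2, so replicates 1 and 3 did not repeat the same place. The longest stretch of identical bases between the canonical CHD4 and CHD3 mRNAs was 37, so reads longer than that differ between these paralogues.

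**Figure D2:**
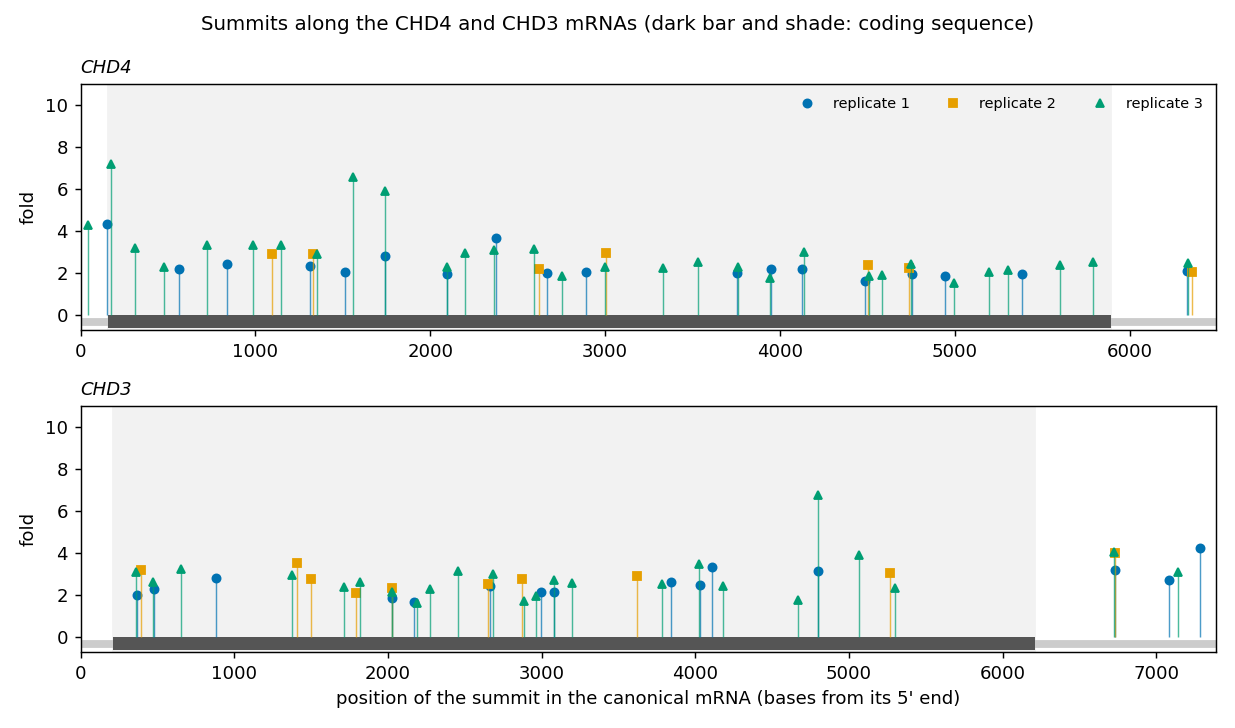
Summits of DDX5 RIP-seq peaks along the canonical CHD4 and CHD3 mRNAs; the x axis is the distance from the mRNA's 5′ end in bases, the y axis the fold enrichment, and each point is 1 peak in an exon, coloured by replicate, with the coding sequence as dark bar and shade. Peaks spread along the coding sequence of CHD4, while in CHD3 the last plotted coding summit lies in exon 34 of 40. Every plotted fold above 5 is from replicate 3. The CHD3 peak of 5.10 in replicate 2 lies outside the canonical exons and is not plotted.

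The scaffold genes differed among themselves. MTA1 (chromosome 14, 105419820 to 105470729) had 3, 2 and 11 peaks in replicates 1, 2 and 3, MTA2 (chromosome 11, 62593214 to 62601865) had 4, 4 and 7, and MTA3 (chromosome 2, 42494569 to 42756947) had none. The best MTA1 peak was the same 3′ UTR place in each list, with folds of 4.54, 4.37 and 7.82, a mean of 5.58 ± 1.95 (SD, n = 3). Its −log10 q was 24.1, 24.6 and 49.8, which put MTA1 at percentiles 98.5, 93.0 and 99.04 of protein-coding genes with a peak. The 3 summits lay within 12 bp, between 105470615 and 105470627, and the middle one was 113 bases before the end of the mRNA. In replicates 2 and 3 this summit also lay in the antisense lncRNA record ENSG00000257270. With only summits in the body of a single gene the mean best fold of MTA1 was 3.74 ± 1.21 (SD, n = 3), below those of GATAD2A, MTA2, GATAD2B and CHD3. The other 10 MTA1 regions were in 1 or 2 lists, and replicate 3 supplied 8 of the 11 coding peaks.

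MTA2 showed a place like that of MTA1. Its 3′ UTR region from 62593252 to 62593392 had folds of 4.64, 5.29 and 3.35 with summits within 24 bp, and the middle summit lay 105 bases before the mRNA end. It was the best MTA2 peak in replicates 1 and 2. In replicate 3 the best peak was the coding region of exon 14, with folds of 2.75, 2.62 and 4.82 over the lists. The mean of the best MTA2 folds was 4.92 ± 0.337 (SD, n = 3), with the values close together. Some pairs of fold and p value recur on at least 10 peaks of a list, and once such peaks were left out MTA2 no longer had a peak in every list.

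GATAD2A and GATAD2B gave the highest share of recurrent places. GATAD2A (chromosome 19, 19385826 to 19508932) had 7, 7 and 12 peaks, and 6 of its 12 regions (50%) were in all lists. GATAD2B (chromosome 1, 153789030 to 153923360) had 11, 6 and 11 peaks, and 5 of its 12 regions (41.7%) were in all lists. For all 127 regions of the members the figure was 30 (23.6%), and for all regions of protein-coding genes 14.2%. Without replicate 2 the members had 59 regions in both remaining lists, a looser limit for which no share over all genes is given. The GATAD2A regions in exons 2, 3, 9 and 11 were coding. The highest was that of exon 11, with folds of 5.16, 5.29 and 8.54 in replicates 1, 2 and 3 and summits within 9 bp. The region of exon 9 followed with 3.61, 6.89 and 7.17. Exons 2 and 3 had 2.89, 2.91 and 4.54, and 2.79, 2.67 and 5.02, with summits within 8 and 6 bp. Replicate 3 was highest at each of these places, and the other lists were close to each other except at exon 9. The pairs of fold and p value recur on 16, 128 and 16 peaks of replicates 1, 2 and 3 for exon 11. For exon 9 they recur on 56, 34 and 42 peaks. Without such recurrent pairs the mean best fold of GATAD2A went from 4.93 to 3.95. The last GATAD2A region lay in the 3′ UTR, its middle summit 102 bases before the mRNA end, with folds of 3.91, 2.71 and 4.46.

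GATAD2B peaks lay more in its long 3′ UTR, with 14 of 28 peaks there and 12 in coding sequence. Its recurrent 3′ UTR regions had middle summits 275, 3010 and 4132 bases past the stop codon, with mean folds of 2.65 ± 0.244, 2.50 ± 0.264 and 3.77 ± 0.548 (SD, n = 3). Their summits were up to 202, 503 and 239 bp apart in that order. At 3010 and 4132 bases the peaks behind the mean did not all overlap each other. At 3010 bases the replicate 2 peak of 2.72 lay apart from that of replicate 3, which a lower replicate 2 peak of 2.09 overlapped. The coding region of exon 7 had folds of 3.67, 4.01 and 3.43. Its pairs of fold and p value recur on 24, 511 and 35 peaks of replicates 1, 2 and 3. The replicate 2 peak of the region at 4132 bases has the same pair as that of exon 7. The best fold of GATAD2B was 5.59, 2.74 and 4.15, at a different place in each list, while that of GATAD2A was 2.89, 6.89 and 5.02, also at different places.

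**Figure D3:**
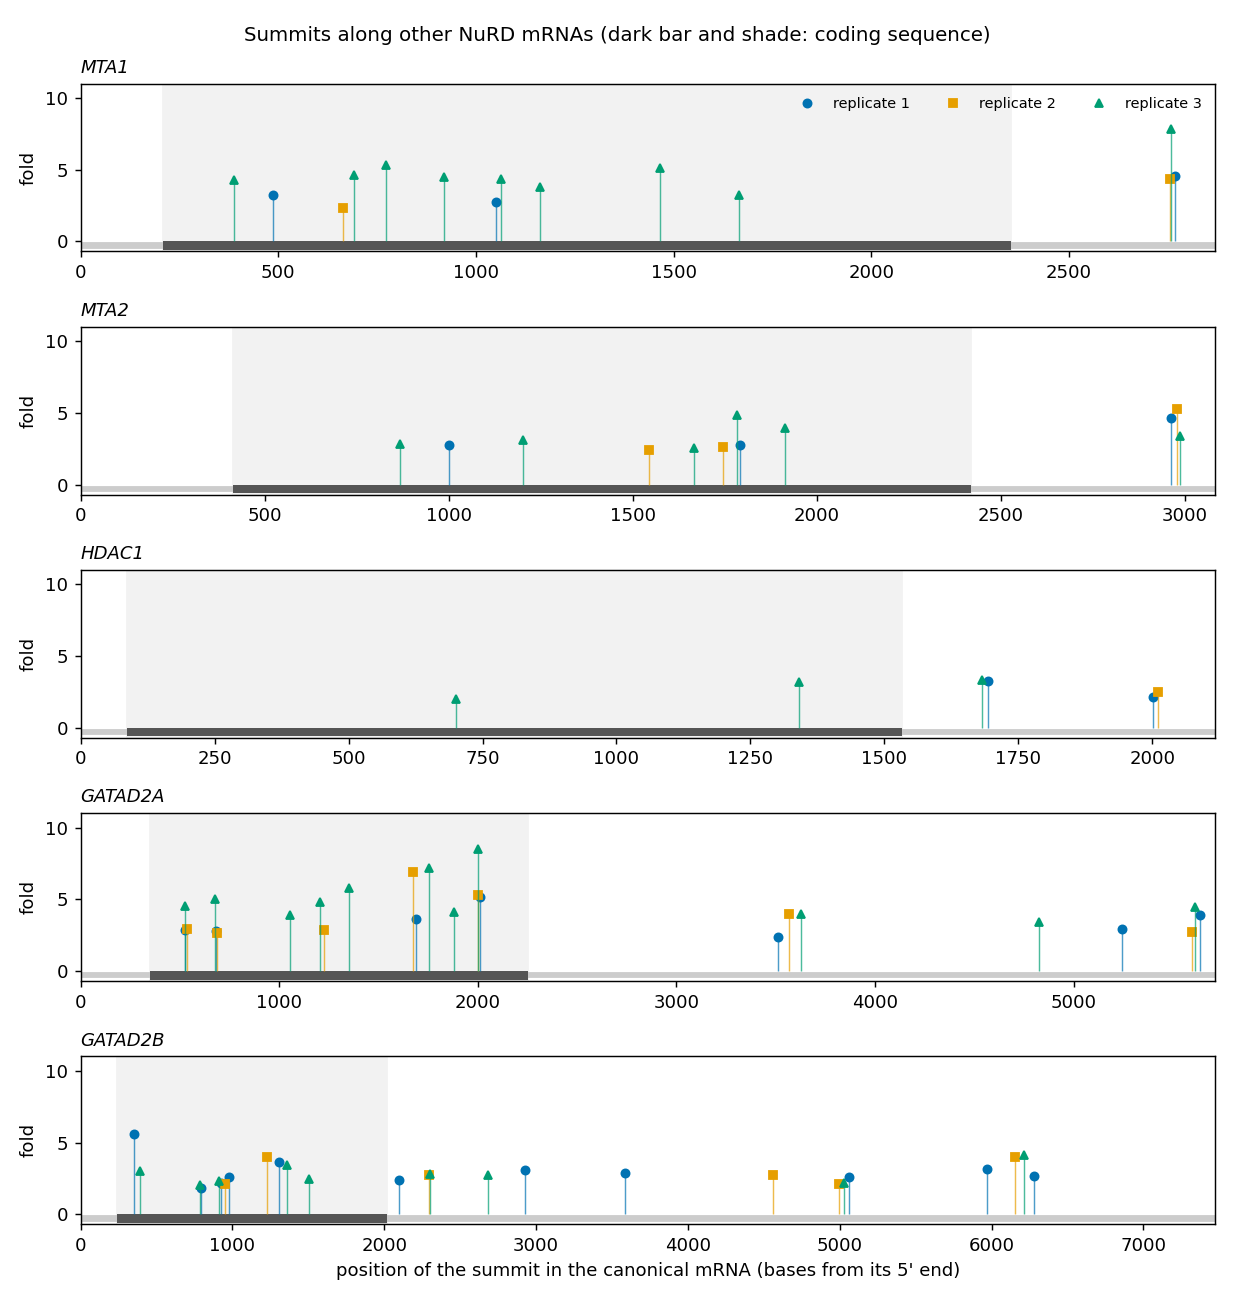
Summits along the canonical mRNAs of MTA1, MTA2, HDAC1, GATAD2A and GATAD2B, with axes, colours and shading as for the CHD4 and CHD3 mRNAs. The 3 lists meet near the 3′ end of MTA1 and MTA2, with summits within 12 and 24 bp, and in the coding sequence of GATAD2A.

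Over the lists together HDAC1, HDAC2 and RBBP4 had 14, 11 and 6 peaks, the fewest of the members with any. HDAC1 was close to MTA2 with 15 and MTA1 with 16. Their mean best folds were also the lowest of these members. In replicate 1, however, the best fold of HDAC1 was above those of CHD3, GATAD2A and CHD4. HDAC1 (chromosome 1, 32292083 to 32333635) had 5, 3 and 6 peaks, with best folds of 3.27, 2.48 and 3.34 in the same order (mean 3.03 ± 0.477, SD, n = 3). The best HDAC1 peak lay in the 3′ UTR in each list, in a region from 32333084 to 32333566 that was the only one in all lists. Its summits fell at 32333201 and 32333191 in replicates 1 and 3 and at 32333519 in replicate 2, near a second and lower peak of replicate 1 with a fold of 2.13. Replicates 1 and 3 also shared HDAC1 peaks in introns 6, 8 and 10, with folds of 2.23 and 3.46, 3.33 and 3.01, and 2.28 and 3.63. Replicate 2 had none there and instead had peaks of 2.84 and 2.602 in intron 7, where another HDAC1 transcript has an exon.

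HDAC2 (chromosome 6, 113933028 to 114011308) had 1, 3 and 7 peaks, with a best fold of 2.30, 2.71 and 2.30, a mean of 2.44 ± 0.234 (SD, n = 3). No HDAC2 region was in all lists. Replicates 2 and 3 shared 3′ UTR peaks near the stop codon, with folds of 1.79 and 2.30 at 255 and 223 bases past it and of 2.71 and 2.90 at 1063 and 1084 bases past it. The rest of its 8033-base 3′ UTR held no peak. The highest HDAC2 fold, 4.10, was a 5′ UTR peak of replicate 3 that also lay in HDAC2-AS2, an antisense lncRNA record. The pair of fold and p value of that peak recurs on 509 peaks of replicate 3. RBBP4 (chromosome 1, 32651142 to 32686211) had 3, 0 and 3 peaks, none of them at the same place, with best folds of 2.14 and 2.85. Of the 6 RBBP4 summits, 2 lay in the 3′ UTR, where they also fell in the body of SYNC on the other strand. None of the 10 annotated pseudogenes named after a member, 7 of them RBBP4 copies, held a summit. Among deacetylases outside NuRD, HDAC3 had no peak in any list, and HDAC8 had 1, 3 and 1.

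By feature, coding sequence led. It held 60.8% ± 7.02 of the members' peaks against 38.4% ± 10.7 of the peaks in all protein-coding genes (SD, n = 3), a difference of 22.4 ± 4.09 percentage points that was above 0 in 3 of 3 lists (exact two-sided sign-flip permutation p = 0.25, the smallest possible). It was smaller under several settings, with 13.9 points for single-gene summits and 11.6 for fold enrichments of at least 4. Without the recurrent pairs of fold and p it was 7.93 ± 18.6 points (SD, n = 3), and replicate 2 turned to −13.01. The 3′ UTR share was 22.4% ± 8.10 against 33.2% ± 8.78, and the intron share 8.56% ± 1.88 against 25.1% ± 10.8 (SD, n = 3). Both were lower in 3 of 3 lists (exact two-sided sign-flip permutation p = 0.25 for each). The lower 3′ UTR share did not hold throughout. Among peaks with fold enrichments of at least 4 the difference turned to 5.36 points above all genes. It was −5.05 points with single-gene summits and −8.05 with q under 1e-05, lower in 2 of 3 lists in each case. The intron difference went from −16.5 points to −3.54 without the recurrent pairs and to −9.26 without replicate 2, and was below 0 in each list under both. CHD4 and CHD3 gave 94 of the 147 coding peaks. In these genes coding sequence held 77.5% ± 7.52 of the peaks, and in the other 8 members 44.02% ± 5.97 (SD, n = 3). Coding sequence makes up 88.4% of the canonical CHD4 mRNA and held 90.9% of its 55 peaks in canonical exons. In CHD3 these values were 81.2% and 87.8% of 49. In GATAD2A coding sequence is 33.3% of the mRNA and held 68% of 25 peaks, and in GATAD2B the values were 23.8% and 46.2% of 26. HDAC1 went the other way, with 68.3% coding and 33.3% of 6 peaks. A peak counts once however wide it is, and a place found in several lists counts once in each. These shares of peaks are therefore not shares of bases, and the part of exon lengths in them was not tested.

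**Figure D4:**
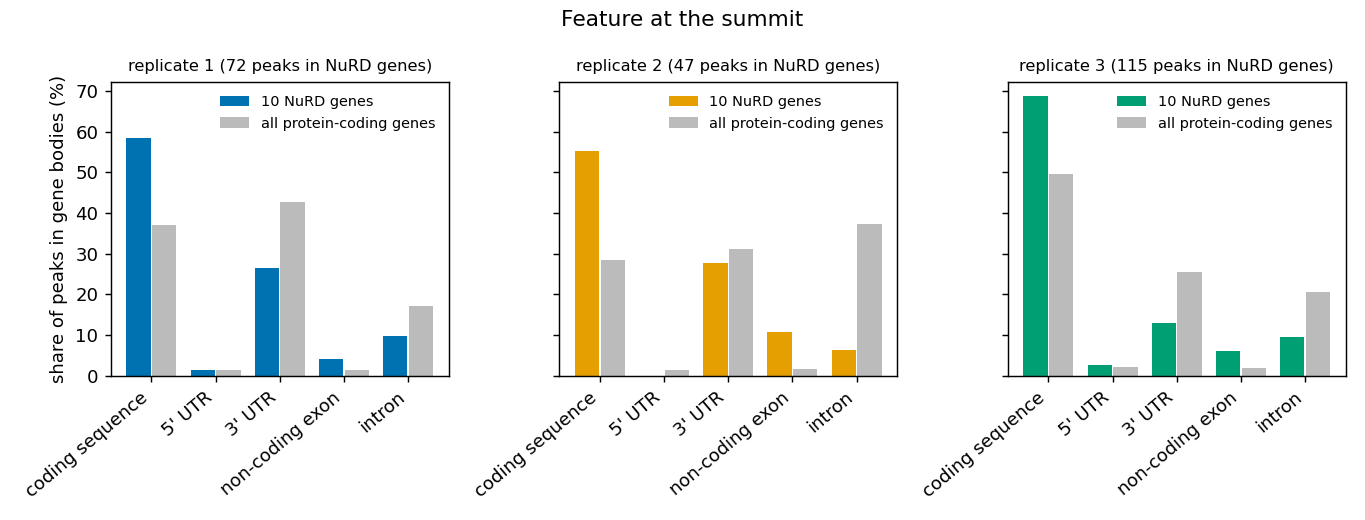
Share of peaks by the feature at the summit, in percent, for the 10 NuRD genes (coloured) and for all protein-coding genes (grey), in each of the 3 lists. The coding share is higher and the intron share lower in the NuRD genes in every list; without the recurrent pairs of fold and p the coding share of replicate 2 is not.

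The height of the members' peaks did not stand apart from that of other genes. Their median fold was 2.43, 2.74 and 3.09 in replicates 1, 2 and 3, against 2.62, 3.18 and 2.90 for all peaks in protein-coding genes. It was lower in replicates 1 and 2 and higher in replicate 3, with a mean log2 ratio of −0.08 ± 0.15 (SD, n = 3; exact two-sided sign-flip permutation p = 0.5). The 8 members in every list had a median best fold of 4.14, and all 5155 protein-coding genes in every list had 3.65, with quartiles of 3.03 and 4.49. In order of mean best fold the members ran MTA1, GATAD2A, MTA2, GATAD2B, CHD3, CHD4, HDAC1 and HDAC2, and neighbours in that order differed by less than the larger of their SDs except HDAC1 and HDAC2, whose single values still overlapped. Without the recurrent pairs of fold and p the mean of GATAD2B went from 4.16 to 2.50, below those of CHD3, CHD4 and HDAC1, and with single-gene summits MTA1 lost its place, so the order is a description of these lists. Summits in the last 500 bases of the canonical mRNA made up 16.4%, 13.2% and 6.25% of the members' peaks in canonical exons and 20.3%, 19.5% and 13.1% of those of all genes. This share was lower in the members than in all genes in 3 of 3 lists (exact two-sided sign-flip permutation p = 0.25). It came from 10, 5 and 6 member peaks, which include the 3′-end places of MTA1, MTA2, CHD4 and GATAD2A. Being a share of peaks, it does not give their number per gene.

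GC content within 50 bases of the coding summits was near that of the gene's coding sequence in CHD4 and GATAD2A. It had a median of 53.0%, 52.5% and 50.5% in CHD4 in replicates 1, 2 and 3, whose coding sequence is 50.98% GC. In GATAD2A it was 63.4%, 61.4% and 65.3%, with 61.8% GC in its coding sequence. Coding peaks of all genes had medians of 52.5%, 52.5% and 50.5%, so the CHD4 values were also near those of all genes. The GATAD2A medians rest on 4, 5 and 8 peaks.

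Of 14 other genes of NuRD or of proteins bound to it, 9 had a peak in every list, 1 in fewer and 4 in none, and of 6 other CHD genes 5 had one in every list, against 25.7% of all protein-coding genes and 49.8% of those with a peak in at least 1 list. MBD2 and MBD3, the methyl-CpG-binding domain subunits, reached mean best folds of 5.24 ± 0.758 and 6.02 ± 1.35 (SD, n = 3), with 4.54, 6.04 and 5.13 for MBD2 and 5.36, 5.13 and 7.57 for MBD3. ZNF592, a zinc finger partner of ZMYND8, was at 7.37 ± 3.17, from 4.44, 10.7 and 6.92, and had 11, 11 and 10 peaks. ADNP, which pairs with CHD4 in a separate complex, was at 4.44 ± 0.653, KDM1A, a histone demethylase, at 3.57 ± 0.885, and ZMYND8 at 3.48 ± 0.548 (SD, n = 3). RBBP7, the paralogue of RBBP4, was at 3.07 ± 0.083, CDK2AP1 at 2.98 ± 0.90 and PWWP2A at 2.88 ± 1.20 (SD, n = 3). ZNF687 was in 2 lists, and CHD5, PWWP2B, ZFPM1 and SALL4 were in none. The CHD genes CHD8, CHD9, CHD7, CHD6 and CHD2 were at 5.39 ± 2.68, 5.47 ± 2.598, 4.11 ± 0.70, 3.71 ± 0.862 and 2.81 ± 0.882 (SD, n = 3), and CHD1 had a peak in replicate 3 alone. Of all these genes ZNF592 had the highest mean exonic density, 1.302 ± 0.0705 peaks per kb, and CHD6 followed at 1.02 ± 0.795, against 1.55 ± 0.866 for CHD4 and 1.60 ± 0.693 for CHD3 (SD, n = 3), spreads that overlap. Some of the best folds came from introns. The best peak was intronic in each list for ADNP and in replicates 2 and 3 for CHD9 and CDK2AP1. It was also intronic in replicate 1 for MBD2 and KDM1A, and in replicate 2 for RBBP7 and CHD6.

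By best fold over the 3 lists, the gene records named as most like CHD4 outside these lists were ENSG00000285238, which shares its peaks and lay at a Euclidean distance of 0 on the log2 scale, and MAPKAP1 at 0.0581. MAPKAP1 had folds of 2.86, 2.91 and 5.73 in replicates 1, 2 and 3. This likeness rests on 3 values per gene.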

How the data were processed

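Nuclear RNA bound to DDX5 was sequenced from 3 RH30 immunoprecipitates, and 1 peak list for each was analysed. Per the submitters' processing notes, the peak caller was MACS2 2.2.7.1 and the aligner STAR 2.6.1d, on GRCh38, beside SAMtools 1.10, cutadapt 1.11, bcl2fastq 2.20 and FastQC 0.11.8. Parameters and the control library are not given in the sources used here. The fold enrichment deposited by the authors is a ratio per peak. The deposited p-value and q-value are on the −log10 scale, and the deposited score, derived from the q-value, was not used. Depth is unknown, so no counting interval is given.

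Summits that share an interval were counted as 1 peak, placed at its most significant summit. Genes, exons and features came from GENCODE version 44, over all transcripts of the gene. Coding sequence took precedence over the 5′ UTR, then the 3′ UTR, exons of non-coding transcripts and last introns. A summit in several gene bodies was counted for each. A gene's peaks were joined into 1 region where they overlapped by 1 bp or more. Differences between members and all genes were taken within each list, and their signs were permuted over the 3 lists (exact, two-sided). Python 3.11.15, pandas 2.3.3 and pysam 0.24.0 were used, and the assignment was tested on simulated data.

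Members and lists were chosen with earlier results of these data known, so no list was tested. Named are the members, listed genes with a peak in every list or in none, pseudogenes and genes that overlap members, and the 3 genes nearest to CHD4 by log2 best fold. ZNF687, CHD1 and MYMK were named outside this rule, and some items it covers are not reported here. The alternatives were a stricter q, a minimum fold, single-gene summits, equal list lengths, each replicate left out, recurrent fold and p pairs left out, every summit counted, other overlap rules, exonic summits and canonical transcripts.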

Additional observations from a re-analysis of the deposited data

How the results depend on the processing

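Depth is unknown, and the sign-flip test used over 3 lists cannot give a p below 0.25. No paired analysis was possible because all lists analysed belong to 1 group, and the INPUT samples with the same replicate numbers were not analysed here. Of the recomputed main values 74 kept their direction or size, 13 moved and 5 reversed, and for single genes 64 kept it and 5 moved. The count of members in every list was 5 with fold enrichments of at least 4. That setting also gave 14 peaks per list, 2 regions in all lists, 4 other genes in every list, a median best fold of 4.92, a 3′ UTR difference turned to 5.36 points and a log2 fold ratio of members to all peaks turned to 0.022. With q under 1e-05 there were 47.7 peaks per list and 14 regions, and without shared pairs of fold and p 32.3 peaks, 10 regions, a median best fold of 3.35 and a coding difference of 7.93 points. Regions in all lists numbered 19 with single-gene summits and 17 with reciprocal overlap of 50%. Leaving out each replicate gave 30 to 59 regions and 8 to 9 members in every remaining list, a looser limit than being in all 3 lists. For CHD4 over CHD3 it gave log2 ratios of −0.49 to 0.18 in best fold and −0.23 to 0.044 in exonic peak density, with the sign turned without replicate 2. With canonical exons, an alternative chosen after seeing the data, the density ratio turned to 0.21. The cause of these changes was not tested, beyond fewer peaks remaining under stricter limits and fewer lists being required with a replicate left out.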
